A study of Mus musculus with 2 samples.

Results

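The cornified envelope genes described here are 10 structural genes of the outermost layer of stratified epithelium: Sprr1a, Sprr1b, Sprr2d, Sprr2f, Sprr2h, Sprr3, Ivl, Lor, Krtdap and Sbsn. They were taken by symbol from the deposited gene table, which lists all 10 among 20003 genes. RNA was sequenced as 2 libraries labelled RAW 264.7, a mouse macrophage-like line made with a leukaemia virus. Per the labels, both cultures received macrophage colony-stimulating factor (M-CSF) at 20 ng/mL and interleukin 4 (IL-4) at 10 ng/mL, which drives the alternatively activated (M2) state. One was also given GANT61 at 10 µM, an inhibitor of the GLI transcription factors of the Hedgehog pathway, and the other the solvent DMSO, in each case 4 h before IL-4. The time with IL-4 is stated as 15 min in one protocol text and 24 h in another. The libraries are called here by their titles, M2+GANT61 and M2+DMSO, and each group holds 1 of them. The question of the series was what Hedgehog blockade does to the macrophage transcriptome.

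The cornified envelope is a sheet of protein laid down under the plasma membrane of keratinocytes as they die at the body surface. Transglutaminases cross-link involucrin, loricrin, the small proline-rich (SPRR) proteins and other precursors into it, and lipids are attached outside it. Most of the precursor genes lie side by side in the epidermal differentiation complex. They are known as products of differentiating keratinocytes and are not among the genes that define macrophages.

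The M2+DMSO library held 61632784 reads over 18730 genes and the M2+GANT61 library 57705874 reads over 18376 genes. Each of the 12 macrophage markers listed was present, with a summed level, in counts per 1000000 reads (CPM), of 2440 in the M2+DMSO library and 5372 in the M2+GANT61 library. All 16 keratins of stratified epithelium also had reads in both libraries, with summed levels of 963 and 1749 CPM. Fibroblast markers summed to 9326 and 9567 CPM and adipocyte markers to 7754 and 1322 CPM, and in the M2+DMSO library both exceeded the macrophage markers. Keratins, collagens and adipocyte genes define cell types that the label does not name, so the transcripts go against a culture of RAW 264.7 cells alone. Whether these columns hold the labelled cultures could not be settled from the sources used here, and every ratio is therefore one between the libraries as labelled. In bulk RNA, fewer cells of a type and less RNA per cell cannot be told apart.

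Levels are CPM on library sizes adjusted with edgeR's TMM factors, and ratios are those of the M2+GANT61 over the M2+DMSO library. Each ratio carries a 95% exact Clopper-Pearson interval, which covers counting error only. A gene is called higher when its ratio is at least 1.5, its interval excludes 1 and its mean level is at least 1 CPM, and lower by the inverse rule. With a single library on each side there is no replicate error, no test and no p-value, and the calls compare these libraries and not the treatments. By this rule 6 of the 10 genes were higher in the M2+GANT61 library, 0 were lower and 4 lay below the floor of 1 CPM. Among the 13939 genes at or above the floor, 14.1% were higher and 10.3% lower. The 6 were Sprr1a, Sprr1b, Ivl, Lor, Krtdap and Sbsn.

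**Figure D1:**
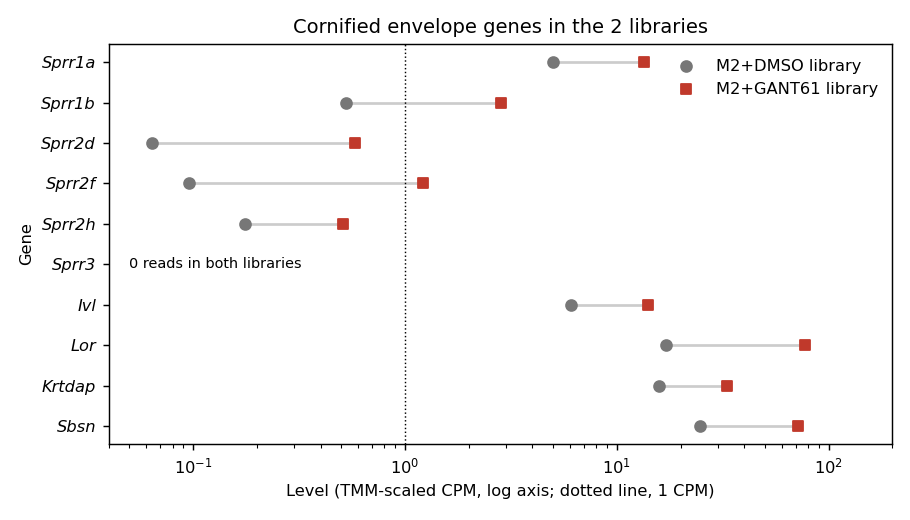
Level of each cornified envelope gene (vertical axis) in CPM on a log axis, as a grey circle for the M2+DMSO library and a red square for the M2+GANT61 library, with the floor of 1 CPM dotted. For 9 genes the square lies to the right of the circle, and Sprr3 had 0 reads in both.

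The SPRR proteins are short cross-linkers built of repeats rich in proline, cysteine and glutamine, and the genes are close relatives. Their coding sequences are shown because the 3 Sprr2 members differ in how many repeats they carry, and their likeness bears on whether reads can be told apart. Capitals mark each match to GCCNTGTCC, the core of the repeat, in the coding strand of the GENCODE M21 transcripts (GRCm38).
Sprr2d: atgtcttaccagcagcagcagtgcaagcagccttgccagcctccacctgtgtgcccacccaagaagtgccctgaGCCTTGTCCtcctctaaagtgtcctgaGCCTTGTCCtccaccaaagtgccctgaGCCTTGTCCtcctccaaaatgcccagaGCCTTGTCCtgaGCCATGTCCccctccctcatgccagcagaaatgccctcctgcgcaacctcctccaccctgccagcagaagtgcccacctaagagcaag
Sprr2f: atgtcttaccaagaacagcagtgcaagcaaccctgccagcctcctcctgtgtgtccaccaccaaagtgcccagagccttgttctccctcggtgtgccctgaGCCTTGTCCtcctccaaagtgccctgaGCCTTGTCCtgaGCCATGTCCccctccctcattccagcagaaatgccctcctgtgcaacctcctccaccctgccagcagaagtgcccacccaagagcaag
Sprr2h, bases 1 to 300: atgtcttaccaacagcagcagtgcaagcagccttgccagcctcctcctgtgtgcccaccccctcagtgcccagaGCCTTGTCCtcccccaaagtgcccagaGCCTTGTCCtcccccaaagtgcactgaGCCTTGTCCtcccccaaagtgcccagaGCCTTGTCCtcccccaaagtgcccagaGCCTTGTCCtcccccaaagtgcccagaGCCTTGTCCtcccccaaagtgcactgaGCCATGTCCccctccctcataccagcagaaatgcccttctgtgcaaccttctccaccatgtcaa
Sprr2d holds 5 of these units in 255 coding bases, Sprr2f 3 in 228 and Sprr2h 7 in 324, spaced 27 bases apart except before the last unit of Sprr2d and Sprr2f. In a global alignment the coding sequences of Sprr2d and Sprr2f were 80.8% identical, those of Sprr2d and Sprr2h 71.9% and those of Sprr1a and Sprr1b 78.4%. Windows of 50 bases were still largely specific to their gene. Of the windows in the transcripts of Sprr2d, 4.27% occurred in another gene, against 0.714% for Sprr2f and 0 for Sprr2h, Sprr1a, Sprr1b and Sprr3. Of the neighbouring copies outside the 10, the Sprr2a genes were far less distinct. Shared windows made up 96.3% in Sprr2a1, 96.5% in Sprr2a2 and 61.1% in Sprr2a3. The share was 14.1% for Sprr2b, 12.5% for Sprr2i, 10.2% for Sprr2e and 0.159% for Sprr2j-ps. For Sprr2g, Sprr2k and Sprr4 it was 0.

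Among the 6 SPRR genes described here, which are a part of the family, Sprr1a was the most abundant and Sprr1b followed. Sprr1a (chr3:92483952-92485895, minus strand), which is also known as an injury-induced gene outside the skin, had 313 reads in the M2+DMSO library and 763 in the M2+GANT61 library. These are 5.0 and 13.4 CPM, a ratio of 2.68 (2.35 to 3.07). Sprr1b (chr3:92436809-92438789, minus strand), its closest paralog, had 33 and 162 reads, or 0.527 and 2.85 CPM. Its ratio was 5.34 (3.70 to 8.12), so the intervals of these 2 paralogs did not overlap. Sprr1b reached the floor only through its level in the M2+GANT61 library.

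The 3 Sprr2 members were rare and lay under the floor, and each had more reads in the M2+GANT61 library. Sprr2d (chr3:92339140-92340873, plus strand) had 4 and 33 reads, with exact Poisson intervals of 1.09 to 10.2 and 22.7 to 46.3 reads. Sprr2f (chr3:92365187-92366442, plus strand) had 6 and 69 reads, with intervals of 2.20 to 13.1 and 53.7 to 87.3. Sprr2h (chr3:92385685-92387324, plus strand) had 11 and 29 reads, and its intervals, 5.49 to 19.7 and 19.4 to 41.6, overlapped narrowly. The ratios were 8.20 (3.23 to 35.3) for Sprr2d, 11.8 (5.53 to 35.7) for Sprr2f and 2.83 (1.41 to 6.44) for Sprr2h. These intervals all overlapped each other, and the ratios of the 3 copies were not compared directly. Without the floor the rule of size would call all 3, beside 13.4% of the 19347 genes with any read.

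Sprr3 (chr3:92456502-92458720, minus strand), best known from the lining of the mouth and oesophagus, had 0 reads in both libraries. With a one-sided limit of 3 reads, a count of 0 allows a level of up to 0.0479 CPM in the M2+DMSO library and 0.0528 CPM in the M2+GANT61 library, and the exact Poisson interval used for the Sprr2 genes reaches 3.69 reads. The gene lies between Sprr1b and Sprr1a on the chromosome, both of which were detected. Its level could not be compared at this depth.

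Ivl and Lor encode precursor proteins of the envelope. Involucrin, from Ivl (chr3:92570902-92573735, minus strand), is laid down early and anchors the lipid layer. Ivl had 382 and 801 reads, which are 6.10 and 14.1 CPM and a ratio of 2.31 (2.04 to 2.62). Loricrin, from Lor (chr3:92080271-92083142, minus strand), is deposited late and makes up most of the mass of the epidermal envelope. Lor had 1074 and 4373 reads, 17.2 and 77.0 CPM, a ratio of 4.48 (4.19 to 4.80). The ratio of Lor was thus about that of Sprr1b, whose interval it overlapped, and above that of Ivl, whose interval it did not.

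Krtdap and Sbsn lie together on chromosome 7 and encode secreted proteins of the upper epidermis. Krtdap (chr7:30787896-30791097, plus strand), the keratinocyte differentiation-associated protein, had 993 and 1890 reads, 15.9 and 33.3 CPM. Its ratio of 2.10 (1.94 to 2.27) was the smallest among the 9 genes with reads. Sbsn (chr7:30751471-30756134, plus strand), which encodes suprabasin, had 1548 and 4083 reads, 24.7 and 71.8 CPM, a ratio of 2.90 (2.74 to 3.08). The intervals of these neighbours did not overlap. For Sbsn, 6.96% of its windows of 50 bases also occur in Tmem147os, a transcript of the other strand, and whether the counting used strand is not given in the sources used here.

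**Figure D2:**
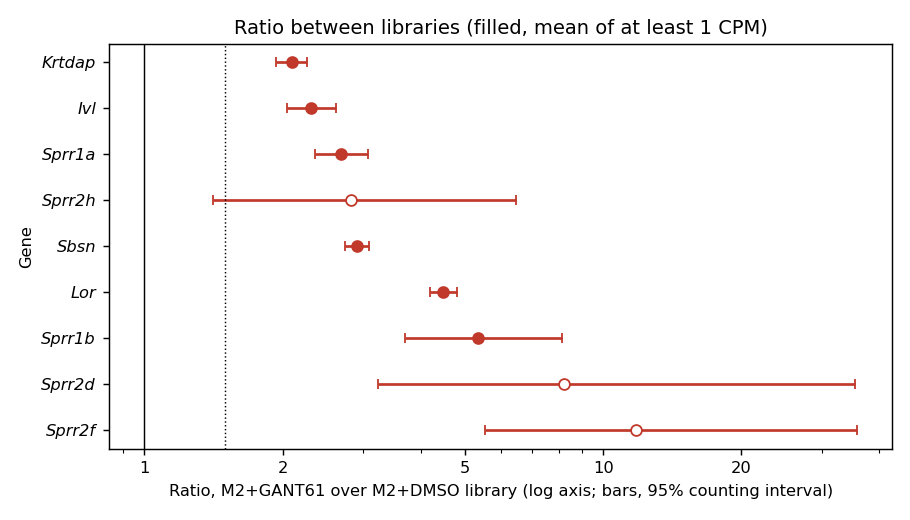
Ratio of the M2+GANT61 over the M2+DMSO library (log axis) for the 9 genes with reads, with 95% counting intervals as bars, a solid line at 1 and a dotted line at 1.5. Open circles are genes with a mean below 1 CPM; their bars are the widest, reaching 35.7 for Sprr2f.

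Ordered by ratio, the genes ran from Krtdap through Ivl, Sprr1a, Sprr2h, Sbsn, Lor, Sprr1b and Sprr2d to Sprr2f. Among neighbours in this order only Sbsn and Lor had intervals that did not overlap. Set among all genes at the floor, the ratio of Krtdap exceeded those of 93.8%, that of Lor 98.8% and that of Sprr1b 99.2%. Per length, on the deposited RPKM scale (reads scaled by gene length and library size), Krtdap was the most abundant, at 27.2 and 56.9. Sbsn followed at 8.58 and 24.8 RPKM, Lor at 7.65 and 34.2, Sprr1a at 5.02 and 13.4 and Ivl at 2.52 and 5.79. The order was the same in both libraries except that Lor passed Sbsn in the M2+GANT61 library and that the rare Sprr2 genes changed places. Together the 10 genes had 4364 and 12203 reads, a ratio of 3.08 (2.97 to 3.19).

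**Figure D3:**
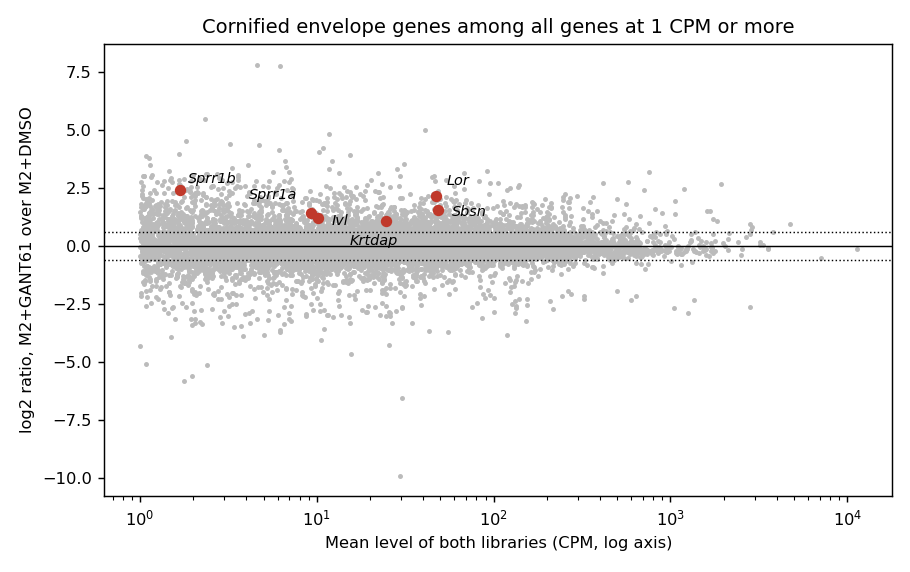
log2 ratio against mean level (CPM, log axis) for every gene at or above the 1 CPM floor (grey), with the 6 cornified envelope genes above that floor in red and lines at 0 and at ratios of 1.5 and its inverse. The 6 genes lie between log2 ratios of 1.07 and 2.42, within a cloud that also holds other genes of larger ratio.

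The promoters of the genes are shown because genes of both chromosomal clusters were higher in the same library, and because GLI factors and AP-1 bind defined motifs. Each line gives the 200 bases before the RefSeq start of the gene (GRCm38.p6), 5′ to 3′ on the strand of the gene. Capitals mark matches to TATAAA, the TATA box, and to TGANTCA, a loose form of the AP-1 motif in which N is any base. Sprr3 is included as the gene without reads.
Sprr1a, chr3:92485882-92486081, minus strand: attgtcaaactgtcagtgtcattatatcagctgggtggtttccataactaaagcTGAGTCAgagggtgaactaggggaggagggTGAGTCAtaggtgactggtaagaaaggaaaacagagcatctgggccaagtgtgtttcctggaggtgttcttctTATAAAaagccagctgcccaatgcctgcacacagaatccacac
Sprr2f, chr3:92364987-92365186, plus strand: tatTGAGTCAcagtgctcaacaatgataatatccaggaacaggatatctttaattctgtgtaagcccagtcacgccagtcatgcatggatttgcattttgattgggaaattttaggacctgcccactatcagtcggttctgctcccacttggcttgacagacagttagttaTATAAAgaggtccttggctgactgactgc
Ivl, chr3:92573736-92573935, minus strand: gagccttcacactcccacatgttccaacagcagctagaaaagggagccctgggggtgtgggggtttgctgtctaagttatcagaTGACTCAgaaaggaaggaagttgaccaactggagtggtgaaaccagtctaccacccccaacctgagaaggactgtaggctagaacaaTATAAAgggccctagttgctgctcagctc
Lor, chr3:92083143-92083342, minus strand: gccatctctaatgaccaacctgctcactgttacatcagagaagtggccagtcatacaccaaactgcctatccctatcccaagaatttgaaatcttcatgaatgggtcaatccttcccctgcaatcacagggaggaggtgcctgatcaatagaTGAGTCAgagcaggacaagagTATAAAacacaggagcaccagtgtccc
Krtdap, chr7:30787705-30787904, plus strand: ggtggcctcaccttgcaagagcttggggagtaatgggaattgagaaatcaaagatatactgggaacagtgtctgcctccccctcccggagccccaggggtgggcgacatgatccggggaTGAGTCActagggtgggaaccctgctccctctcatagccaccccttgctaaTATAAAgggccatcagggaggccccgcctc
Sprr3, chr3:92458721-92458920, minus strand: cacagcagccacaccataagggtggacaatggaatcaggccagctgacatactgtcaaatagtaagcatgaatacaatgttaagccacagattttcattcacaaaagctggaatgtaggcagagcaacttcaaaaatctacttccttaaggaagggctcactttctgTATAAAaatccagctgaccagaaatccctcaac
RefSeq promoters of 250 bases before to 50 after the start were found for 10 of the 10 genes. TGANTCA, searched on both strands, occurred in 9 of them, all but Sprr3, against 7.81% of 32851 mouse promoters of the same length. In Sprr1a it began at -146 and -116 from the start, in Ivl at -116, in Krtdap at -81 and in Lor at -48. The only match in Sprr1b was TGAATCA, at -111, whereas each of the other genes with a match held TGAGTCA or TGACTCA. How many of all promoters hold those stricter forms was not counted. TATAAA, searched on the strand of the gene alone, occurred in 9, all but Sbsn, against 8.32% of all promoters. The GLI motif GACCACCCA, searched on both strands, occurred in 0 of the 10 and in 0.253% of all promoters. CCCCACCC, a motif of Krüppel-like factors, also searched on both strands, occurred in Sbsn alone, against 9.99%. No 2 of these matches overlapped in a printed sequence, and a match is a description of letters, not of binding.

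Of the 10 genes, 8 lie on chromosome 3 and 2 on chromosome 7. The chromosome 3 members belong to the epidermal differentiation complex, taken here as the 69 listed genes from S100a1 to S100a10, a stretch of 3.05 Mb chosen after the values were seen. Of these 69 genes, 38 reached the floor, and 27 were higher, 2 lower and 9 neither. In the inner stretch from Lor to Ivl, 20 genes are listed, of which 7 were higher and 0 lower. Leaving out the 8 members there, 3 of the other 12 were higher, 8 lay below the floor and 1, Prr9, was neither, with 193 and 175 reads. The 3 were Sprr2a1, Sprr2a2 and Sprr2a3, whose coding sequences were 98.8% to 100% identical, so their calls may rest on shared reads. They also count among the 7 and the 27. The genes after Ivl gave 17 higher, 1 lower and 2 neither of 33, and 9 of the 17 reached the floor only through the M2+GANT61 library. Over the whole stretch this held for 11 of the 27 higher genes, and over all genes for 249 of 1972. The stretch before Lor, which holds most of the S100 genes, gave 3 higher, 1 lower and 6 neither of 16.

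**Figure D4:**
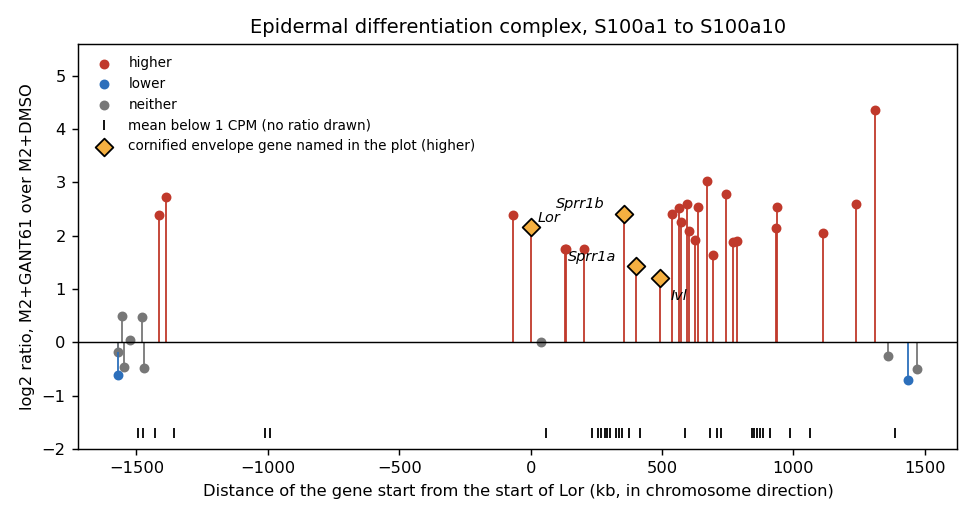
log2 ratio of the genes of the epidermal differentiation complex against the distance of each gene start from that of Lor in kb, coloured by call, with diamonds for the named members and ticks near the lower edge for genes below 1 CPM. From Pglyrp3, just before Lor, to Rptn every stem lies above 1 except that of Prr9, while the stems at the 2 ends lie between -0.71 and 0.49 apart from S100a8 and S100a9, at 2.39 and 2.73.

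Close relatives of the members had ratios in the same direction. Of 10 other Sprr genes, 3 were higher and 7 lay below the floor. The 3 were Sprr2a1 and Sprr2a2, each at 665 and 2042 reads, and Sprr2a3, at 1017 and 3115 reads, with ratios of 3.38 (3.10 to 3.70) for the first pair and 3.37 (3.14 to 3.62). The equal counts of Sprr2a1 and Sprr2a2 come with near-identical sequence of all 3, so the split between copies is uncertain. The 3 calls may therefore rest on shared reads. Late cornified envelope (LCE) genes and neighbours, which encode small precursors added at the end of envelope assembly, gave 13 higher, 0 lower and 11 below the floor of 24. Of the 13, 8 reached the floor only through their level in the M2+GANT61 library, a filter that favours higher calls. For Lce1g, which was among these 8, the reads numbered 14 and 107 and the ratio was 8.16 (4.80 to 15.9). Kprp, a keratinocyte proline-rich protein, counted 85 and 535 reads and stood at 6.90 (5.50 to 8.82). Lce1c had a ratio of 6.01 (4.61 to 8.04) and Lce1a1 of 5.73 (4.69 to 7.12). How far reads of single LCE genes can be told apart was not measured.

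The S100-fused proteins of the filaggrin type are large and line the cornified cell. Of 6 listed genes, 3 were higher, 0 lower, 1 neither and 2 below the floor. Filaggrin itself is not analysed here. Rptn, which encodes repetin and reached the floor only through the M2+GANT61 library, counted 27 and 510 reads, giving 20.4 (14.1 to 31.9). Hrnr, hornerin, had a ratio of 6.07 (5.68 to 6.49) and Flg2, filaggrin 2, of 4.16 (3.84 to 4.53). Tchh, trichohyalin of the hair root sheath, was neither, at 7.53 and 6.26 CPM.

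Transglutaminases join the precursors. Of 7 transglutaminases, 1 was higher, 3 were neither and 3 lay below the floor. The higher one was Tgm1, the membrane-bound keratinocyte enzyme, at 6.26 and 22.8 CPM, a ratio of 3.63 (3.24 to 4.08). Tgm2, the widespread tissue transglutaminase that macrophages also make, had a ratio of 1.17 (1.16 to 1.19). Tgm3 was also neither, with 228 and 145 reads and a ratio of 0.701 (0.565 to 0.866), whose interval lay below 1. The median log2 ratio of the list was 0.22, against -0.01 over all genes at the floor.

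Proteases and inhibitors of cornification numbered 19: 12 higher, 1 lower, 1 neither and 5 below the floor. Prss8 was the lower gene, with 2142 and 831 reads and a ratio of 0.427 (0.394 to 0.463). Of the 12, 3 reached the floor only through the M2+GANT61 library, Serpinb3a and Klk10 among them. Serpinb3a counted 6 and 260 reads, giving 44.1 (21.6 to 131). Serpinb2, a serpin also made by activated macrophages, counted 327 and 2949 reads, giving 9.92 (8.86 to 11.2). Klk10, a kallikrein, had a ratio of 5.93 (4.36 to 8.39), and Cst6, cystatin M, which restrains the proteases of the stratum corneum, of 4.91 (4.30 to 5.64). Asprv1, the protease that processes filaggrin, had a ratio of 4.41 (4.11 to 4.74). St14, matriptase of many epithelia, was neither, at 0.877 (0.854 to 0.899).

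Barrier lipid genes gave 11 higher, 0 lower, 4 neither and 1 below the floor of 16, and 5 of the 11, Alox12b among them, reached the floor only through the M2+GANT61 library. Alox12b, a lipoxygenase needed to attach lipid to the envelope, counted 35 and 190 reads, giving a ratio of 5.91 (4.15 to 8.84). Abca12, which loads lipid into lamellar granules, had a ratio of 5.39 (4.48 to 6.57), and Fa2h, a fatty acid hydroxylase, of 5.09 (4.18 to 6.28). Ugcg, which makes glucosylceramide in most cells, had a ratio of 1.77 (1.71 to 1.83). The scaffold and corneodesmosome list was mixed, with 9 genes higher, 2 lower and the other 8 of 19 neither, at a median of 0.55. In it Cdsn, corneodesmosin, had a ratio of 3.54 (3.11 to 4.06) and Dmkn, dermokine, which lies between Sbsn and Krtdap, of 3.09 (2.94 to 3.24). Dsp, the desmosomal plaque protein of all epithelia, was neither, at 1.39 (1.35 to 1.42). Evpl, at 1.30 (1.16 to 1.45), and Ppl, at 0.919 (0.877 to 0.964), were also neither. The 2 lower genes were Dsc2, at 0.563 (0.535 to 0.592), and Dsg1c, at 0.472 (0.374 to 0.590).

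Among 27 transcription factors of epidermal differentiation, 11 were higher and 4 lower while 12 were neither, and the median log2 ratio was 0.10. Prdm1, the repressor Blimp-1, had a ratio of 2.95 (2.74 to 3.18). Fosl1, the AP-1 subunit Fra-1, counted 240 and 546 reads, giving a ratio of 2.50 (2.15 to 2.93). The abundant AP-1 subunits Junb and Jund were neither, at 1.30 (1.28 to 1.33) and 0.841 (0.823 to 0.860). Of the other AP-1 subunits on the list, named after their values were seen, Fos was lower at 0.636 (0.615 to 0.657), Fosl2 higher at 2.09 (2.02 to 2.16), and Jun and Fosb were neither, at 0.738 (0.720 to 0.757) and 1.05 (0.961 to 1.15). The list of S100 genes held 13, of which 2 were higher, 2 lower, 7 neither and 2 below the floor, at a median of -0.19. S100a2, in the same stretch but not on that list, had 0 reads in both libraries. The 2 higher were S100a8 and S100a9, which neutrophils also make in quantity, at ratios of 5.23 (4.89 to 5.62) and 6.62 (6.29 to 6.97). S100a10 and S100a11, also found in envelopes, had ratios of 0.704 (0.692 to 0.716) and 0.610 (0.599 to 0.620), of which S100a11 was called lower.

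**Figure D5:**
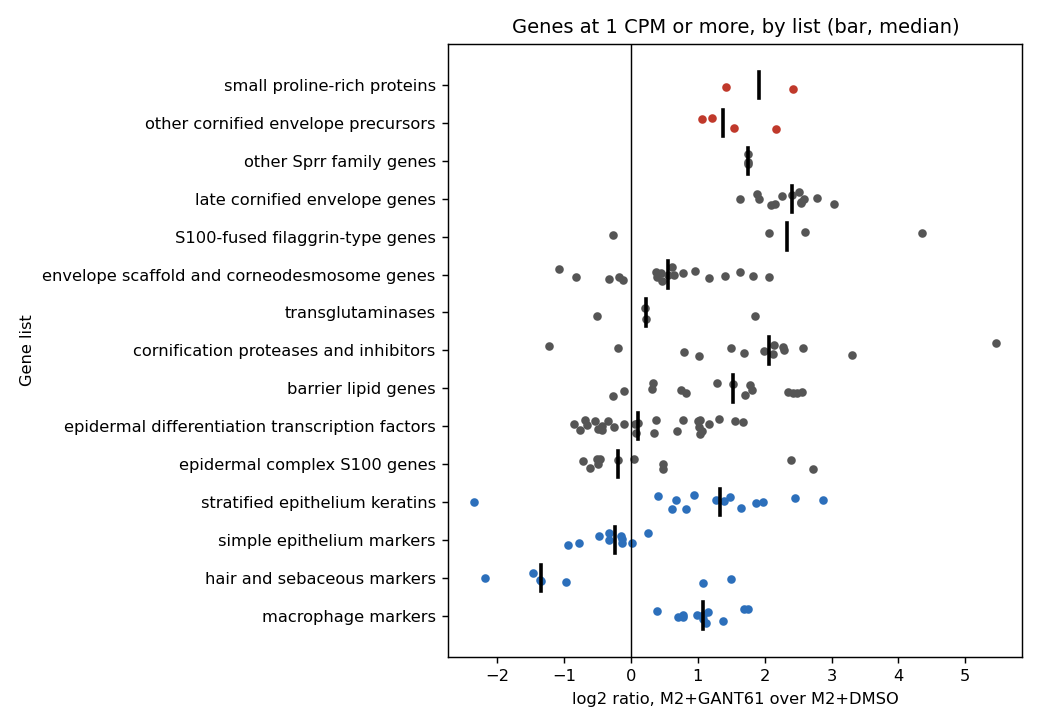
log2 ratio of each gene at 1 CPM or more, by list, with the median of each list as a black bar; red marks the described genes, grey the other lists of the pathway and blue the cell type markers. Simple epithelium markers have a median of -0.24 and macrophage markers of 1.07, while the LCE bar rests on 13 genes, 8 of which passed the floor only through the M2+GANT61 library.

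Markers of other cell types differed as well, keratins of stratified epithelium among them. Of the 16 keratins, 12 were higher, 1 was lower, 1 neither and 2 below the floor, at a median log2 ratio of 1.33. Krt2 was the lower keratin, at 22.0 and 4.33 CPM, giving 0.198 (0.171 to 0.226). The wound-associated keratins Krt6a and Krt6b had ratios of 7.31 (6.48 to 8.29) and 5.45 (4.56 to 6.60). The basal keratin Krt14 stood at 324 and 428 CPM, giving 1.32 (1.30 to 1.35), and the suprabasal keratin Krt10 at 238 and 379 CPM, giving 1.59 (1.56 to 1.63). Markers of simple epithelium did not share this: of these 10, 0 were higher, 2 were lower and the other 8 neither, at a median of -0.24. Krt18 stood at 946 and 551 CPM, giving 0.583 (0.575 to 0.591). Macrophage markers gave 11 higher and 1 neither of 12, with a median of 1.07. Neutrophil markers gave 5 higher, 1 lower, 1 neither and 4 below the floor of 11, summing to 190 and 836 CPM. Of these sums Ltf alone gave 93.1 and 403 CPM. While 7 of the 11 had more CPM in the M2+GANT61 library, Ngp was lower, with 123 and 65 reads. Camp, Mpo and Elane, below the floor, also had fewer reads there. Adipocyte markers gave 12 lower of 12, with the summed levels given above. Fibroblast markers gave 1 lower and 9 neither of 10, and endothelial markers 3 lower and 7 neither of 10, summing to 822 and 685 CPM. The part of any of these cell types in the ratios of the cornified envelope genes was not tested.

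Set against a keratin of the same library, a ratio needs no scaling between libraries, though the result depends on which keratin is chosen; these 4 were chosen after the values were seen. Relative to Krt10, Lor stood at 8.48% of its RPKM in the M2+DMSO library and 23.9% in the M2+GANT61 library, a change of 2.81 times (exact conditional interval 2.62 to 3.02). All 6 genes above the floor were higher against Krt10 and against Krt14, with intervals above 1, by 1.32 to 3.39 times and by 1.59 to 4.09 times. Against Krt1, another suprabasal keratin, 5 of the 6 intervals lay above 1, and that of Krtdap, 0.9996 to 1.18, included it. Against Krt5, the basal partner of Krt14, Lor and Sprr1b were higher, by 1.43 (1.33 to 1.54) and 1.73 (1.18 to 2.59) times. Relative to Krt5 the other 4 were lower: Krtdap at 0.669 (0.616 to 0.727), Ivl at 0.737 (0.650 to 0.838), Sprr1a at 0.857 (0.748 to 0.984) and Sbsn at 0.927 (0.868 to 0.990). Lor and Sprr1b were therefore the genes of the 6 that were higher against each of these 4 keratins. This restates that their ratios exceeded that of Krt5, 3.13 (3.04 to 3.22), and holds for these 4 alone. Krt6a and Krt6b, not among the 4, had ratios of 7.31 and 5.45, above the point ratios of both genes. Sprr1b reached the floor only through the M2+GANT61 library.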

How the data were processed

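RNA was sequenced on an Illumina instrument from 1 M2+GANT61 and 1 M2+DMSO library. The authors deposited expected counts (unnormalized gene reads, some not whole) and RPKM values, per the file headers. The submitters' processing notes list 2 builds, hg19 and mm10, and as tools Partek, SAMtools, STAR, cutadapt and HISAT2. Their roles and versions, the counter, annotation and strand setting are not given in the sources used here. Columns were tied to libraries by the treatment in their names, since the numbers there differ from those in the titles. Of the deposited counts, 29.54% (M2+DMSO) and 29.26% (M2+GANT61) were not whole and were rounded.

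Scaling used TMM in edgeR 4.0.16 (R 4.3.3), with a prior count of 0.5 per library for ratios. Intervals came from scipy 1.17.1, and code was tested on simulated data. Alternatives were DESeq2 1.42.0 size factors, library totals, upper-quartile factors, the deposited RPKM values, unrounded counts, other prior counts, floors and folds. Positions and transcripts came from GENCODE M21, promoters from RefSeq; coding alignments used Biopython 1.88.

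The members and the 19 gene lists were chosen with earlier results of these data known. Named were the 10 members, from each pathway list up to 4 called genes with the largest ratios in either direction and the 2 most abundant, and from each cell type list 2 of each kind. The text gives some of these, and some items are not reported here. Tchh, Prr9, S100a2, Fos, Fosl2, Fosb, Jun, Prss8, Krt1, Krt2 and Krt5 were named after their values were seen. The same holds for Tgm3, Evpl, Ppl, Dsc2, Dsg1c, Ngp, Camp, Mpo, Elane, Krt31, Krt33a, Krt34 and Krt86.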

Additional observations from a re-analysis of the deposited data

How the results depend on the processing

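The 6 calls among the 10 genes stood at 6 under each other scaling, the RPKM values, unrounded counts, both other prior counts and a fold of 2; the count was 9 without a floor and 5, without Sprr1b, with a floor of 5 CPM. The count lower stayed at 0 under each of the 10 alternatives. The ratios of the 9 genes with reads stayed inside their counting intervals under each of the 7 alternatives run on them, from 4.35 to 4.48 for Lor and from 6.42 to 9.09 for Sprr2d. With a fold of 2, the counts over all genes fell from 1972 higher and 1436 lower to 972 and 595, and the genes lower in the pathway lists from 9 to 2. With a floor of 5 CPM, the genes higher in the pathway lists fell from 65 to 38, since fewer genes were tested. No paired analysis was possible because each group holds 1 library. Depth limits Sprr2d, Sprr2f, Sprr2h and Sprr3, and the spread between replicate cultures could not be measured.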

Other observations

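Keratins of the hair root sheath and hair shaft, with a few sebaceous and stem cell markers, were described apart from those of the epidermal surface. Of 14 such markers, 2 were higher in the M2+GANT61 library, 5 lower and 7 below the floor. Of the 5 lower, 2 reached the floor only through the M2+DMSO library, as did 1 of the 2 higher through the M2+GANT61 library. Krt71, an inner root sheath keratin, had 359 reads in the M2+DMSO library and 128 in the M2+GANT61 library, a ratio of 0.394 (0.318 to 0.482). Krt73, of the same sheath and at the floor only through the M2+DMSO library, counted 127 and 25 reads, giving 0.220 (0.135 to 0.335). Scd3, a desaturase of sebaceous glands, counted 222 and 568 reads, giving 2.81 (2.41 to 3.31). Krt71 and Krt73 thus differed in the opposite direction from the 9 cornified envelope genes with reads, but the list as a whole was mixed. Of its 14 markers, 6 had more CPM in the M2+GANT61 library. Among these were the keratins Krt31, Krt33a, Krt34 and Krt86, all below the floor.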
